A study of Mus musculus with 12 samples.

Results

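The genes described here encode the subunits of respiratory complexes II to V and cytochrome c, measured as RNA in mouse liver with and without Ube4a in the hepatocytes. Members were taken by symbol: protein-coding genes named Sdha, Sdhb, Sdhc, Sdhd, Cycs or Cyc1, or whose symbol starts with Uqcr, with Cox and a digit from 4 to 8, or with Atp5. This gave 48 of the 41708 genes in the table: 4 of complex II, 9 of complex III, cytochrome c itself, 17 of complex IV and 17 with a symbol of complex V. Of these, 44 passed the filter on low counts. RNA was sequenced from the livers of 12 mice on a C57BL6/J background, all after a 16 h overnight fast. The 5 control mice were Ube4a flox/flox, with the gene flanked by loxP sites (flox). The 7 knockout mice carried these alleles together with Albumin-Cre, a Cre recombinase expressed from the albumin promoter, which acts in hepatocytes (LKO). The labels do not give the age or sex of the mice, or whether the controls carried Cre. Each library is a whole liver sample, in which the other cell types keep Ube4a, a gene for a ubiquitin ligase of the U-box type. In such bulk samples, fewer cells of a type and less RNA per cell cannot be told apart.

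As background, the respiratory chain sits in the inner mitochondrial membrane and passes electrons from fuels to oxygen. Complex II (succinate dehydrogenase) takes them from succinate in the citric acid cycle, complex III hands them to cytochrome c, and complex IV (cytochrome c oxidase) passes them to oxygen. Complexes III and IV pump protons, and complex V (ATP synthase) uses the returning protons to turn a ring of c subunits and make ATP. In the fasting liver this chain takes up the electrons of fatty acid oxidation and pays for gluconeogenesis. The enzymes are built from a few catalytic subunits and many small accessory ones, nearly all encoded in the nucleus. The mitochondrially encoded subunits of complexes III to V were not analysed here.

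The libraries held 13399874 to 16525053 counts. The targeted gene matched the labels: Ube4a was at 134 ± 11.6 counts scaled to library size (CPM; mean ± SD) in the 5 flox livers and at 26.6 ± 3.45 CPM in the 7 LKO livers, with no overlap. It fell to 19.8% of the flox level (edgeR quasi-likelihood test, Benjamini-Hochberg adjusted p = 3.44e-09; exact two-sided permutation test over 792 splits, p = 0.00253). It was the single gene of 12615 tested that passed an adjusted p of 0.05, a background of 0.00793%. At an unadjusted p under 0.05 stood 7.64% of all genes tested, 3.49% higher and 4.15% lower in LKO livers. The hepatocyte markers Alb, Apoa1, Ttr, Hnf4a and Cps1 summed to between 76280 and 104600 CPM in every liver. Flox replicates 4 and 5 stood apart: their 8 neutrophil markers summed to 458.8 and 726.4 CPM, against 4.90 to 25.2 CPM in the other 10 livers, and their macrophage markers to 498 and 718 CPM, against 30.3 to 222 CPM. Their sinusoidal endothelial markers were also highest, at 200.7 and 268.6 CPM against 45.39 to 160.2 CPM. The same held for their stellate cell markers, at 233.9 and 345.6 CPM against 78.58 to 201.9 CPM. The part of these cells in the results was not tested. The count over all members and the medians by complex are also given without the 2 livers. Every value below named a log2 fold change is LKO over flox from the edgeR fit over all genes.

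No subunit gene of complexes II to V passed the test between LKO and flox livers. The 44 tested members lay mostly on the positive side, with 35 log2 fold changes above 0 and 9 below. Over all genes tested, 48.3% lay above 0. Their median was 0.088, against -0.0060 for all genes, with a range from -0.65 for Cox6b2 to 0.46 for Cox7c. The adjusted p-values of the members ran from 0.505 to 0.996. At an unadjusted p under 0.05 stood 6 members, all higher in LKO livers: Cox7c and Cox6c of complex IV, Uqcrb of complex III, and Atp5l, Atp5k and Atp5j2 of complex V. No member had groups that did not overlap, where 0.293% of all genes did so in the higher and 0.19% in the lower direction. The 95% interval of a member's log2 fold change reached a median of 0.182 to either side, narrower than the 0.291 over all genes. This reach ran from 0.138 for Sdhc to 1.01 for Cox7a1. A change smaller than a member's own reach could not be told from 0.

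**Figure D1:**
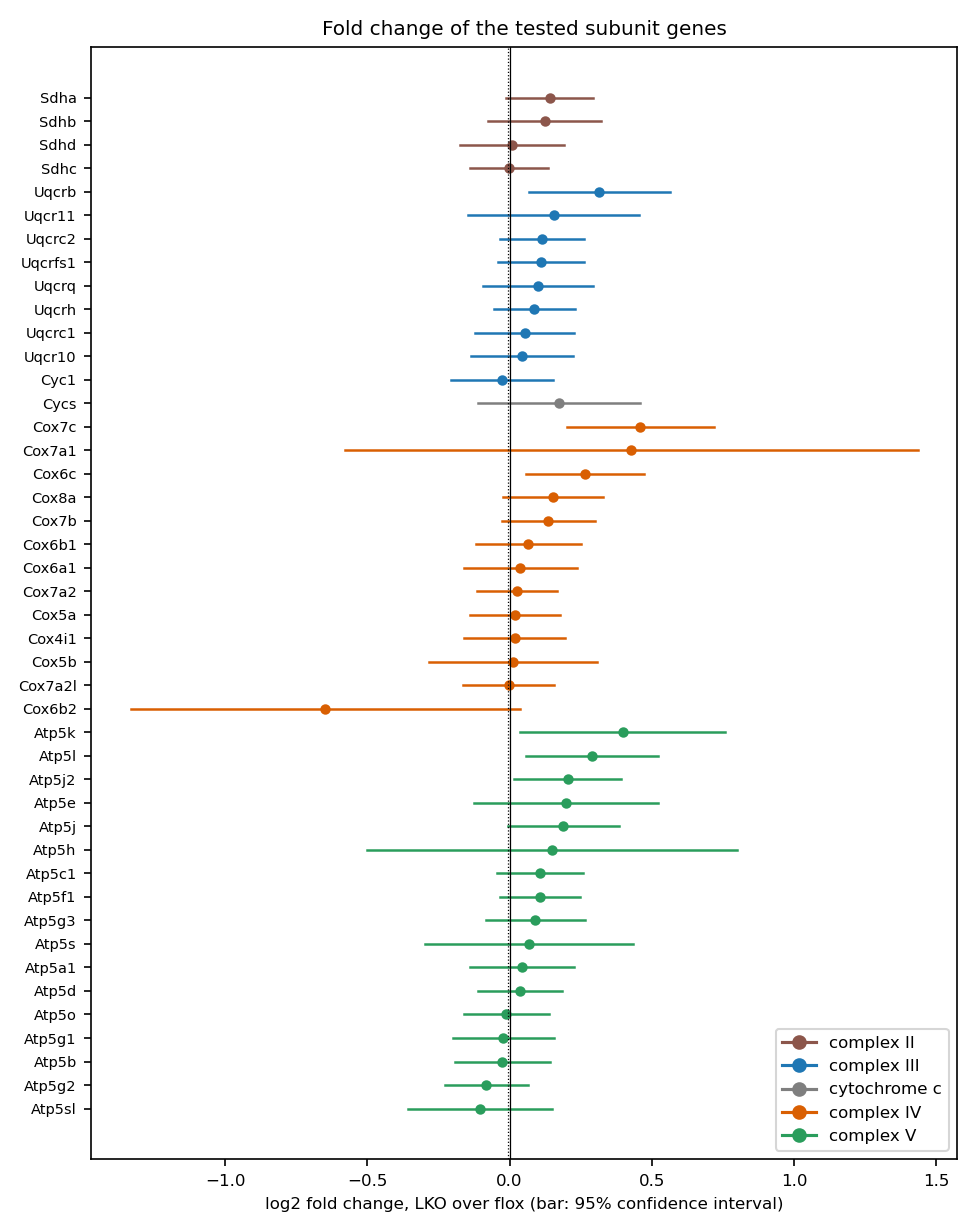
Log2 fold change (LKO over flox) of each tested member, ordered by complex, with bars of the 95% confidence interval. The dotted line is the median of all genes tested. Cox7c lies highest at 0.46 and Cox6b2 lowest at -0.65, and the other genes gather just above 0.

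The lean was largest in single livers. The mean log2 level of the tested members, relative to the mean of all 12 livers, was -0.055, 0.033, -0.13, -0.069 and -0.036 in flox replicates 1 to 5. The LKO livers stood at 0.073, -0.00046, 0.12, 0.23, -0.081, -0.048 and -0.034 in replicates 1 to 7. LKO replicates 1, 3 and 4 were above every flox liver, and LKO replicates 2, 5, 6 and 7 lay within the flox range. LKO replicate 4 was the highest liver for 17 of the 44 members and flox replicate 2 for 10, while flox replicate 3 was the lowest for 10. Without LKO replicate 4, 27 of 43 members were positive (46% of all genes), the median was 0.043 and 4 had an unadjusted p under 0.05 (6.64% of all genes). Without flox replicates 4 and 5, 31 of 44 were positive (51% of all genes), the median was 0.055, and 3 of the 4 with an unadjusted p under 0.05 (5.27% of all genes) were higher in LKO livers (3.46% of all genes). No member passed the adjusted test there, as against 0.00781% of all genes. As a share of all counts the members took 0.954 ± 0.0572% in flox and 0.974 ± 0.0599% in LKO livers, and the groups overlapped. Atp5a1 and Atp5b, which form the catalytic head of ATP synthase, made up 27.1% to 30.4% of the members' counts.

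**Figure D2:**
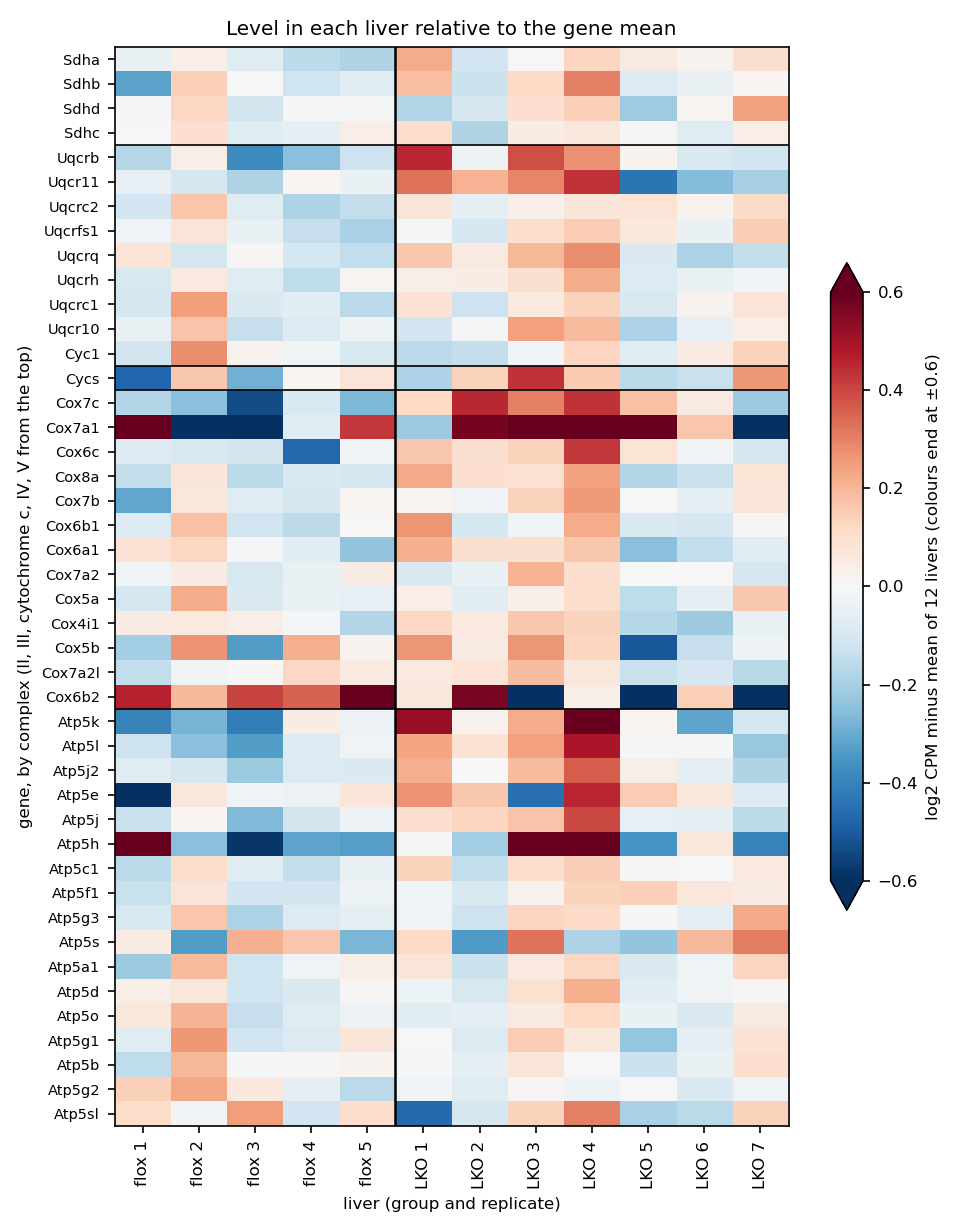
Heat map of each tested member's log2 level in each liver relative to its mean over the 12 livers, with members in rows by complex and livers in columns; colours end at ±0.6. LKO replicate 4 is above the mean for most genes, and isolated cells such as Atp5h in flox replicate 1 stand out from their row.

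Complex II, which links the citric acid cycle to the chain, had 3 of its 4 genes above 0, a median log2 fold change of 0.066, and no gene with an unadjusted p under 0.05. The median was 0.045 without flox replicates 4 and 5, 0.0305 without flox replicate 1 and 0.0217 without LKO replicate 4. Sdha encodes the flavoprotein that oxidises succinate. Its level in flox livers was 457, 484, 448, 422 and 416 CPM in replicates 1 to 5, and in LKO livers it ran from 435 to 549 with a median of 489 CPM. The groups overlapped, since LKO replicates 2, 3 and 6 lay within the flox range, and 6 of the 7 LKO livers lay above the flox mean. The means were 446 ± 27.7 CPM (flox) and 491 ± 35.9 CPM (LKO), a log2 fold change of 0.14 ± 0.072 (SE) (edgeR, adjusted p = 0.678), or 0.085 without flox replicates 4 and 5. Sdhb, the iron-sulfur subunit that carries the electrons on, stood at 183, 253, 229, 211 and 219 CPM in flox replicates 1 to 5 and ran from 209.9 to 283 with a median of 231 CPM in LKO livers. Its log2 fold change was 0.12 ± 0.093 (SE), with an adjusted p of 0.769 by edgeR. The membrane anchors that bind ubiquinone differed least: Sdhc was at 221 ± 11.2 CPM (flox) and 221 ± 14.6 CPM (LKO), and Sdhd at 259 ± 14.9 CPM (flox) and 260.5 ± 30.9 CPM (LKO). Their log2 fold changes were -0.0020 and 0.0093, and the sign of Sdhd changed with the scaling (-0.0031 with upper-quartile factors and -0.022 with total counts). Per length, Sdhd had the highest level of the 4 at a mean of 201 FPKM (fragments scaled to gene length and library size) over all livers, then Sdha at 121, Sdhb at 103 and Sdhc at 68.5 FPKM.

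In complex III, 8 of 9 genes lay above 0, with a median log2 fold change of 0.10. The median was 0.0508 without flox replicates 4 and 5, where Uqcrc1 turned to -0.0010, and 0.047 without LKO replicate 4. Uqcrb (MGP_C57BL6NJ_G0021079; chromosome 13, 69348553 to 69353319, minus strand, in the coordinates of the table's C57BL/6NJ annotation) encodes the small subunit that helps form the ubiquinone site. It was measured at 25.7, 29.8, 22.3, 24.3 and 26.6 CPM in flox replicates 1 to 5, and LKO livers ran from 26.8 to 39.6 with a median of 29.5 CPM. Every LKO liver lay above the flox mean, but flox replicate 2 was higher than LKO replicates 2, 5, 6 and 7. This gave a log2 fold change of 0.32 ± 0.12 (SE), with an unadjusted p of 0.0162 and an adjusted p of 0.625 by edgeR. It was 0.30 without flox replicates 4 and 5 and 0.28 without LKO replicate 4. Uqcrb had the lowest level per length of the 9 genes, at 33.3 FPKM, while the redox-active subunits cytochrome c1 (Cyc1) and the Rieske iron-sulfur protein (Uqcrfs1) had the highest at 212 and 210.2 FPKM. Cyc1 was at 257 ± 29.6 CPM (flox) and 253 ± 21.3 CPM (LKO), a log2 fold change of -0.026 that took either sign when livers were left out in turn. Uqcrc2, a core subunit, was at 268 ± 27.0 CPM (flox) and 290.0 ± 11.1 CPM (LKO), a log2 fold change of 0.11 ± 0.070 (SE) (edgeR, adjusted p = 0.708), or 0.051 without flox replicates 4 and 5. The hinge protein gene Uqcrh, which helps cytochrome c dock, was at 134 ± 8.05 CPM (flox) and 143 ± 10.3 CPM (LKO).

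Uqcr11, the smallest subunit of complex III, lay above all controls in some knockout livers and below all of them in others. Its flox level was 82.1, 79.2, 75.1, 85.8 and 82.8 CPM in replicates 1 to 5. In LKO replicates 1 to 4 it was 107, 98.2, 104 and 115 CPM, above every flox liver, and in replicates 5 to 7 it was 62.7, 71.0 and 74.0 CPM, below every flox liver. The log2 fold change was 0.16 ± 0.14 (SE) (edgeR, adjusted p = 0.810). This gene, Uqcrh, Atp5h, Atp5b, Atp5j and Atp5e were chosen for description after their values were seen. Sdhc, Uqcrfs1 and Ppargc1a were also described outside the rule for named genes.

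Cytochrome c, the soluble carrier between complexes III and IV and a trigger of apoptosis when released, is encoded by Cycs in somatic tissues. Cycs stood at 43.2, 67.1, 49.2, 60.7 and 63.4 CPM in flox replicates 1 to 5 and ran from 52.8 to 81.2 with a median of 66.1 CPM in LKO livers. The highest liver was LKO replicate 3 and the lowest was flox replicate 1, with the others mixed. For Cycs the log2 fold change was 0.17 ± 0.13 (SE), with an adjusted p of 0.769 by edgeR. At 24.7 FPKM its level per length was below that of Uqcrb. Some stretch of at least 100 bases of a Cycs transcript matched 51 other genes at 95% identity or more (GENCODE M21), 3 of them pseudogenes. Those in the table held 72443 counts over their whole length, against 10945 on Cycs itself (662%). Where the stretch lies and how many reads were shared was not examined. The count of Cycs is uncertain where reads were shared.

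In complex IV, 13 of 17 genes were tested, 11 lay above 0 and the median log2 fold change was 0.038. The median rested on single livers: it was 0.0013 without LKO replicate 4, 0.0122, 0.0158 and 0.0237 without LKO replicates 3, 1 and 2, and 0.0715 and 0.0751 without flox replicate 2 and LKO replicate 5. Without flox replicates 4 and 5 it was 0.0564, where Cox6a1, Cox5a and Cox4i1 turned below 0 and Cox7a2l above 0. Cox7c (MGP_C57BL6NJ_G0021184; chromosome 13, 89753039 to 89756274, minus strand) encodes a small single-pass membrane subunit and had the smallest unadjusted p of all members. Its level was 12.9, 12.3, 10.1, 13.7 and 12.1 CPM in flox replicates 1 to 5, and 15.9, 20.0, 18.1, 19.8, 16.5, 15.1 and 12.6 CPM in LKO replicates 1 to 7. Every LKO liver lay above the flox mean, and the groups overlapped through LKO replicate 7, which lay below flox replicates 1 and 4. The means were 12.2 ± 1.35 CPM (flox) and 16.9 ± 2.65 CPM (LKO), a log2 fold change of 0.46 ± 0.12 (SE) with an unadjusted p of 0.00186 and an adjusted p of 0.505 by edgeR. It was 0.51 without flox replicates 4 and 5 and 0.41 without LKO replicate 4, and the smallest adjusted p in any setting was 0.15, by DESeq2. Behind these levels lay 132 to 296 counts per liver.

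Cox6c, another small membrane subunit, stood at 145, 144, 141, 110.2 and 151 CPM in flox replicates 1 to 5 and ran from 142 to 205 with a median of 163 CPM in LKO livers. Flox replicate 4 was far below the other flox livers, and LKO replicate 4 was the highest liver. Its log2 fold change was 0.26 ± 0.10 (SE) (edgeR, unadjusted p = 0.0164, adjusted p = 0.625), and without flox replicates 4 and 5 it was 0.21. Cox7b, which also has a single membrane helix, was at 104 ± 10.1 CPM (flox) and 115 ± 8.82 CPM (LKO), with all 7 LKO livers above the flox mean and a log2 fold change of 0.14 ± 0.076 (SE) (edgeR, adjusted p = 0.701). Cox8a, the liver form of the smallest subunit, was at 106 ± 6.98 CPM (flox) and 118 ± 13 CPM (LKO), a log2 fold change of 0.15 ± 0.082 (SE). Cox4i1, through which ATP inhibits the oxidase, was at 418 ± 27.0 CPM (flox) and 423 ± 43.7 CPM (LKO), and its log2 fold change of 0.018 became -0.035 without flox replicates 4 and 5 and -0.010 with total counts. Cox6b1, which joins the monomers of the dimer on the side facing cytochrome c, was at 119 ± 11.3 CPM (flox) and 124 ± 13.8 CPM (LKO).

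Several complex IV subunits exist as tissue forms, and the liver or general forms had the higher levels here. Cox6a1 had the highest level per length of the complex, at 401 FPKM, and was at 278 ± 27.0 CPM (flox) and 285 ± 33.4 CPM (LKO), with a log2 fold change of 0.038 that became -0.045 without flox replicates 4 and 5. Its heart and muscle partner Cox6a2 was listed at 0 in all 12 libraries, as was the testis form Cox8c. In this table Cox17, Sco2 and Pet117, assembly factors of complex IV that respiring cells use, were also listed at 0 in every library, so a 0 here does not show that a gene is silent. Cox4i2, the hypoxia-responsive lung form, and Cox8b, the heart and muscle form, each had 6 counts in all libraries together, and none of these 4 was tested. Cox7a2, the liver form, was at 135 ± 5.75 CPM (flox) and 137 ± 10.7 CPM (LKO). Cox7a2l, which encodes a related protein, was at 99.8 ± 6.91 CPM (flox) and 99.6 ± 9.10 CPM (LKO). Their log2 fold changes were 0.025 and -0.0023; Cox7a2 turned to -0.0044 with total counts, and Cox7a2l to 0.056 without flox replicates 4 and 5. The muscle form Cox7a1 passed the filter with 2 to 14 counts per liver and was at 0.435 ± 0.300 CPM (flox) and 0.605 ± 0.267 CPM (LKO), a log2 fold change of 0.43 ± 0.47 (SE). The testis form Cox6b2 held 5 to 25 counts per liver. Cox6b2 was at 1.19 ± 0.200 CPM (flox) and 0.759 ± 0.341 CPM (LKO), the most negative log2 fold change of all members at -0.65 ± 0.32 (SE) (edgeR, adjusted p = 0.664). The 5 markers of skeletal and heart muscle summed to at most 0.303 CPM, with Ckm, Myh7 and Mb at 0. Of the 3 brown fat markers, Ucp1 was at 0 in every liver, Cidea was at most 0.843 CPM, and Elovl3, a fatty acid elongase that liver also expresses, ran from 11.1 to 362 CPM. No gene with the symbol Cox7b2 was found.

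In complex V, 12 of 17 genes lay above 0, with a median log2 fold change of 0.090. The median was 0.061 without flox replicates 4 and 5, where 11 of the 17 genes lay above 0. It was 0.0581, 0.052 and 0.0514 without flox replicate 3, LKO replicate 3 and LKO replicate 7. The medians of the complex V genes are given by place in the enzyme. The 3 small subunits of the membrane part, which hold ATP synthase dimers together in the crista rim, were the 3 complex V genes with an unadjusted p under 0.05, against 7.64% of all genes, and their median log2 fold change was 0.289. That count of 3 was 1 without LKO replicate 1, 3 or 4 or flox replicate 3, 0 without flox replicate 2, and 2 without flox replicate 1, 4 or 5. It was also 2 without flox replicates 4 and 5 together, as Atp5j2 had an unadjusted p of 0.064 by edgeR. The median of the 3 was positive in each of these fits. The peripheral stalk, which keeps the head from turning, had 3 of 4 genes above 0 and a median of 0.128. The central stalk, which turns with the c ring, had 3 of 3 and 0.107. For the catalytic head the median of its 2 genes was 0.0092, and for the 3 genes of the c ring it was -0.022. Differences between these places were not tested. Atp5s and Atp5sl share the prefix but encode Dmac2l, known as coupling factor B, and Dmac2, an assembly factor of complex I, and their median was -0.018.

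Atp5l, the g subunit of the membrane part (MGP_C57BL6NJ_G0035215; chromosome 9, 44725415 to 44734611, minus strand), stood at 62.0, 56.7, 53.7, 63.9 and 66.7 CPM in flox replicates 1 to 5 and ran from 57.7 to 95 with a median of 71.9 CPM in LKO livers. LKO replicates 1 to 6 were above every flox liver, replicates 5 and 6 at 67.2 and 67.0 CPM by less than 1 CPM, and replicate 7 lay within the flox range. The log2 fold change was 0.29 ± 0.11 (SE) (edgeR, unadjusted p = 0.0183, adjusted p = 0.625), and it was 0.37 without flox replicates 4 and 5 and 0.21 without LKO replicate 4. Atp5l is also the gene next to the deleted one: Ube4a spans 44737000 to 44780476 on the same strand of chromosome 9, and 2388 bases separate them. Ube4a lies upstream, so transcription of the floxed locus runs toward Atp5l, and any part of this neighbourhood in the value was not tested. The labels do not say whether counting used strand. Transcripts of 9 pseudogenes in the GENCODE M21 annotation matched Atp5l at 95% identity or more over at least 100 bases, against 4 for Cox7c, 3 for Uqcrb and 1 for Atp5k. Cox6c had 2 such pseudogenes. Of 11 similar genes of any kind for Atp5l, 1 was found as a row of the table. It held 1 count, against 12322 on Atp5l itself. For Cox7c, Uqcrb, Cox6c and Atp5k 0 similar genes were found as rows, so reads on their copies were not measured.

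Atp5k, the e subunit beside it in the membrane (MGP_C57BL6NJ_G0030285; chromosome 5, 115046460 to 115047664, minus strand), stood at 17.4, 18.9, 17.2, 23.7 and 22.4 CPM in flox replicates 1 to 5 and ran from 18.4 to 38.0 with a median of 23.4 CPM in LKO livers. LKO replicates 1 and 4 were the highest, and flox replicates 4 and 5 were the highest controls. For Atp5k the log2 fold change was 0.40 ± 0.17 (SE) (edgeR, unadjusted p = 0.0327, adjusted p = 0.637). It was 0.56 without flox replicates 4 and 5 and 0.28 without LKO replicate 4. Atp5j2, the f subunit, stood at 129, 127, 117, 129 and 128 CPM in flox replicates 1 to 5 and ran from 120.1 to 175 with a median of 139.8 CPM in LKO livers. The flox values lay close together apart from replicate 3, and LKO replicate 7 lay between it and the others. The log2 fold change was 0.20 ± 0.088 (SE) (edgeR, unadjusted p = 0.0345, adjusted p = 0.640). It was 0.22 without flox replicates 4 and 5 and 0.14 without LKO replicate 4. A further small membrane subunit, known as DAPIT, goes by the symbol Usmg5 in the table and so was no member. It is described outside the rule for named genes. Its groups overlapped, and its value with livers left out was not read. Usmg5 was at 79.6 ± 6.10 CPM (flox) and 91.5 ± 12.1 CPM (LKO), a log2 fold change of 0.20 ± 0.092 (SE) (edgeR, unadjusted p = 0.0471, adjusted p = 0.651).

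**Figure D3:**
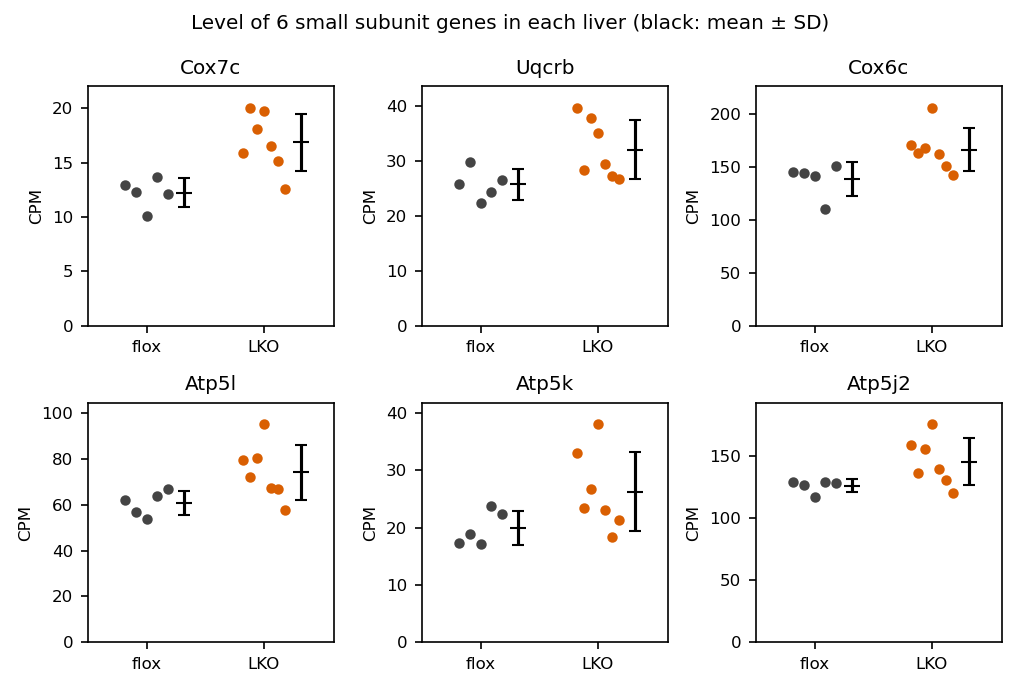
CPM of Cox7c, Uqcrb, Cox6c, Atp5l, Atp5k and Atp5j2 in each liver, with 1 point per liver and the mean ± SD of 5 flox and 7 LKO livers in black. LKO means lie above flox means in all 6 panels and the points of the groups overlap in each, as for Cox7c, where flox livers reach 13.7 and LKO livers start at 12.6 CPM.

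The catalytic head had the highest levels of the complex. Atp5a1, the alpha subunit, was at 393 ± 42.0 FPKM in flox and 404 ± 28.4 FPKM in LKO livers. Atp5b, the beta subunit that makes ATP, was at 365 ± 30.9 and 357 ± 19.1 FPKM. Their log2 fold changes were 0.044 ± 0.086 (SE) and -0.025 ± 0.078 (SE), and both took either sign when livers were left out in turn. In the peripheral stalk, Atp5j (coupling factor F6) was at 72.6 ± 5.28 CPM (flox) and 82.8 ± 10.8 CPM (LKO), a log2 fold change of 0.19 ± 0.091 (SE) (edgeR, adjusted p = 0.661). A stretch of its transcript matched 1 other gene, no pseudogene, which held 88.2% as many counts as Atp5j. By position, Atp5j (chromosome 16, 88184515 to 88192274, minus strand) overlaps Gabpa, which starts at 88191574 on the plus strand. Gabpa was at 67.6 ± 6.58 CPM (flox) and 70.3 ± 7.47 CPM (LKO), and whether it is the matching gene was not tested. Atp5h, the d subunit, varied widely between single livers. It was measured at 101, 44.6, 35.4, 42.6 and 42.2 CPM in flox replicates 1 to 5 and ran from 40.2 to 96.4 with a median of 52.7 CPM in LKO livers. Flox replicate 1, LKO replicate 3 and LKO replicate 4 were high, at 101, 80.5 and 96.4 CPM, and the other 9 livers lay between 35.4 and 55.6 CPM. Its log2 fold change was 0.15 ± 0.30 (SE) (edgeR, adjusted p = 0.927), and it became -0.036 without flox replicates 4 and 5. Atp5e, the epsilon subunit of the central stalk, stood at 60.4, 100.02, 93.5, 93.0 and 100.2 CPM in flox replicates 1 to 5 and ran from 69.7 to 131 with a median of 106 CPM in LKO livers. Flox replicate 1 and LKO replicate 3 were low, and the other 10 livers were at 90.4 CPM or more.

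The c ring, which turns as protons pass, is built from identical proteins made by 3 genes that differ in their import signal. Per length, Atp5g3 gave 66.0 ± 1.32% of the summed FPKM of the 3 genes in flox and 68.3 ± 1.26% in LKO livers, Atp5g2 21.2 ± 1.76% and 19.5 ± 1.13%, and Atp5g1 12.8 ± 0.592% and 12.2 ± 0.689%. Some stretch of at least 100 bases of an Atp5g1 transcript matched 20 other genes, 2 of them pseudogenes. Those in the table held, over their whole length, 295% of its own counts. How many reads were shared was not examined, and the share of Atp5g1 is uncertain where they were. Atp5g3 had 0 such matches, so the matching genes are not the other c subunit gene Atp5g3. The ranges overlapped for each gene, at 64.5% to 67.5% in flox and 66.6% to 70.5% in LKO livers for Atp5g3. Atp5g2 was at 95.5 ± 10.3 CPM (flox) and 90.2 ± 2.21 CPM (LKO), with 0 of the 7 LKO livers above the flox mean and a log2 fold change of -0.082 ± 0.068 (SE) (edgeR, adjusted p = 0.790). Without flox replicates 4 and 5 it was -0.18 (edgeR, unadjusted p = 0.0232, adjusted p = 0.903), the single member lower in LKO livers at an unadjusted p under 0.05 in that fit. Atp5g1 was at 147 ± 16.5 CPM (flox) and 144 ± 12.4 CPM (LKO) and Atp5g3 at 388 ± 36.7 CPM (flox) and 413 ± 35.3 CPM (LKO), with log2 fold changes of -0.022 and 0.090, where that of Atp5g1 took either sign when livers were left out. Atpif1, which encodes the inhibitor that blocks ATP hydrolysis and does not carry the symbol prefix, was at 4.41 ± 1.51 CPM (flox) and 3.99 ± 1.26 CPM (LKO).

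**Figure D4:**
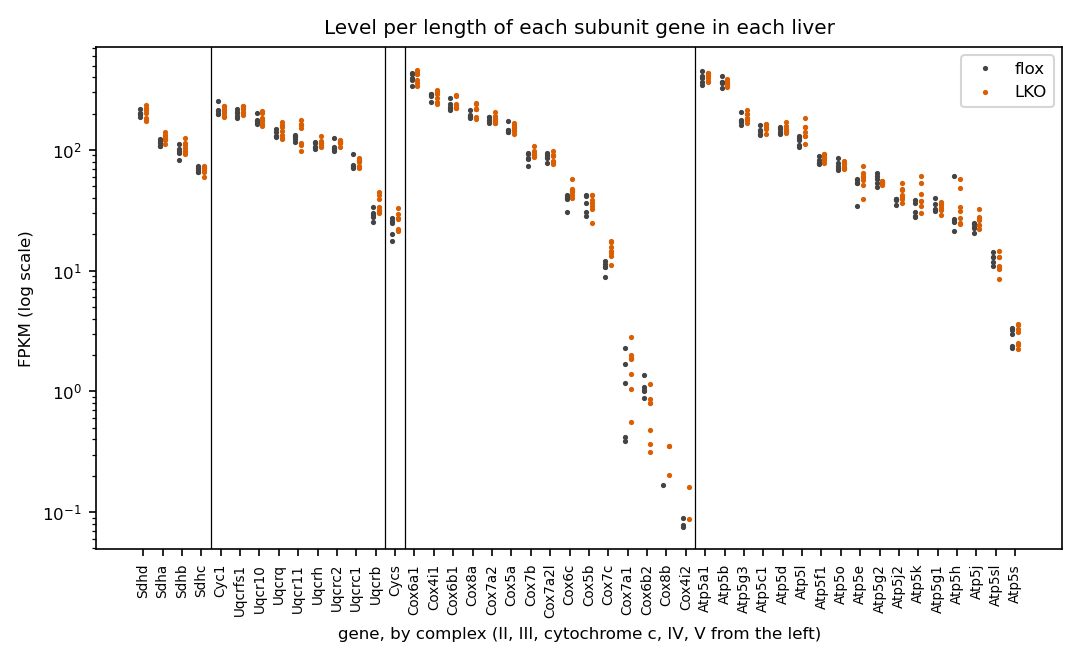
FPKM of each member in each of the 12 livers on a log axis, by complex, with flox and LKO livers in separate colours and values of 0 left out. Cox6a1 and Atp5a1 lie highest, with means of 401 and 399 FPKM, and the muscle and testis forms Cox7a1 and Cox6b2 lie far below, with means of 1.46 and 0.846 FPKM. The few points of Cox4i2 and Cox8b lie lower still, with means of 0.041 and 0.090 FPKM. Cox6a2 and Cox8c, at 0 in every liver, have no points.

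Promoters were read because subunit genes of the chain are known targets of the factors NRF1 and GABP, which bind GCGC-rich palindromes and the CCGGAAG core. Windows from 250 bases before to 50 bases after the start were available for 37 of the 48 members in the RefSeq table (GRCm38.p6). The 10-letter NRF1 palindrome GCGCATGCGC, searched on both strands, was in 4 members (10.8%), Atp5g2, Atp5k, Cox6a1 and Uqcrc1, and in 1.07% of the 27025 windows of all genes. The looser GCGCNNGCGC, which contains it, was in 27% of members and 7% of all windows. CCGGAAG, on both strands, was in 12 members (32.4%) and in 9.93% of all windows. AAGATGGCG, the YY1 core, was in Atp5j, Atp5j2 and Atp5sl (8.11%) and in 1.64% of all windows. The members holding the NRF1 palindrome had a median log2 fold change of 0.045, and the 12 with CCGGAAG one of 0.15, all positive. Of all tested members, 79.5% were positive, and the share among all genes with CCGGAAG was not counted. Sdhd, Cox6a1 and Atp5h took either sign when livers were left out in turn. All of the 12 but Sdhb, Sdhd and Atp5h encode proteins of at most 120 residues, and motif and length were not told apart. A match is a description of these letters and not of binding. The 3 sequences below show where the palindrome sits, with the 180 bases before the start, written 5′ to 3′ on the minus strand, where the genes lie. Capitals mark GCGCATGCGC, and in Cox6a1 also CTTCCGG, the CCGGAAG core read on the other strand.
Atp5g2 (chr15:102671048-102671227): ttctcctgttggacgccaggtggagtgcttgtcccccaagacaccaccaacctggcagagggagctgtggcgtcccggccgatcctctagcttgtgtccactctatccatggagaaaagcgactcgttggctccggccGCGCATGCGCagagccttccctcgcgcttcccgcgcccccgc
Atp5k (chr5:108434400-108434579): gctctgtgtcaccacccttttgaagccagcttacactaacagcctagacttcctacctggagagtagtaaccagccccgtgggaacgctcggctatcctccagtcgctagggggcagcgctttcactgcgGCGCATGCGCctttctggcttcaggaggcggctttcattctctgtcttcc
Cox6a1 (chr5:115348959-115349138): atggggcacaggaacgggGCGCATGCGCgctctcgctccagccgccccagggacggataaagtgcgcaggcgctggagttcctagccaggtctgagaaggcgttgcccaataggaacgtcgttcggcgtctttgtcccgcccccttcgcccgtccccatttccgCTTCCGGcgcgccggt
The palindrome begins 42 bases before the start in Atp5g2, 50 in Atp5k and 162 in Cox6a1. The log2 fold changes of these 3 genes were -0.082, 0.40 and 0.038, on both sides of 0.

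The 6 members with an unadjusted p under 0.05 all encode short proteins. With a limit of 120 residues on the longest coding region in GENCODE M21, chosen after the values were seen and so given with no test, 20 tested members were short and 24 long. Of the short members, 19 (95%) lay above 0, with a median log2 fold change of 0.165, and the exception was Cox6b2. Of the long members, 16 (66.7%) lay above 0, with a median of 0.028 and none at an unadjusted p under 0.05. Among all genes tested, 365 were short by the same limit, and 61.1% of them lay above 0, with a median of 0.044 and 9.59% higher at an unadjusted p under 0.05. For the 10566 longer genes these values were 46.8%, -0.011 and 3.22%. Without LKO replicate 4, 17 of 19 short and 10 of 24 long members lay above 0, with medians of 0.111 and -0.011. Without flox replicates 4 and 5, the counts were 18 of 20 and 13 of 24, with medians of 0.203 and 0.014.

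Short genes that were no members were also highest in LKO replicates 1, 3 and 4. The median relative log2 level of the 20 short members was -0.088, 0.045, -0.15, -0.087 and -0.024 in flox replicates 1 to 5. It was 0.161, 0.092, 0.196, 0.275, -0.028, -0.054 and -0.107 in LKO replicates 1 to 7. For the 345 other short genes the highest medians were 0.108 in LKO replicate 4, 0.0985 in replicate 1 and 0.0966 in replicate 3, and LKO replicates 5 to 7 lay between -0.0511 and -0.0425. The long members were -0.085, 0.134, -0.074, -0.069 and -0.046 in flox replicates 1 to 5, where replicate 2 was the highest of the 12 livers. They were 0.022, -0.099, 0.097, 0.127, -0.084, -0.041 and 0.082 in LKO replicates 1 to 7. The part of transcript length, library preparation or RNA quality in these values was not tested.

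**Figure D5:**
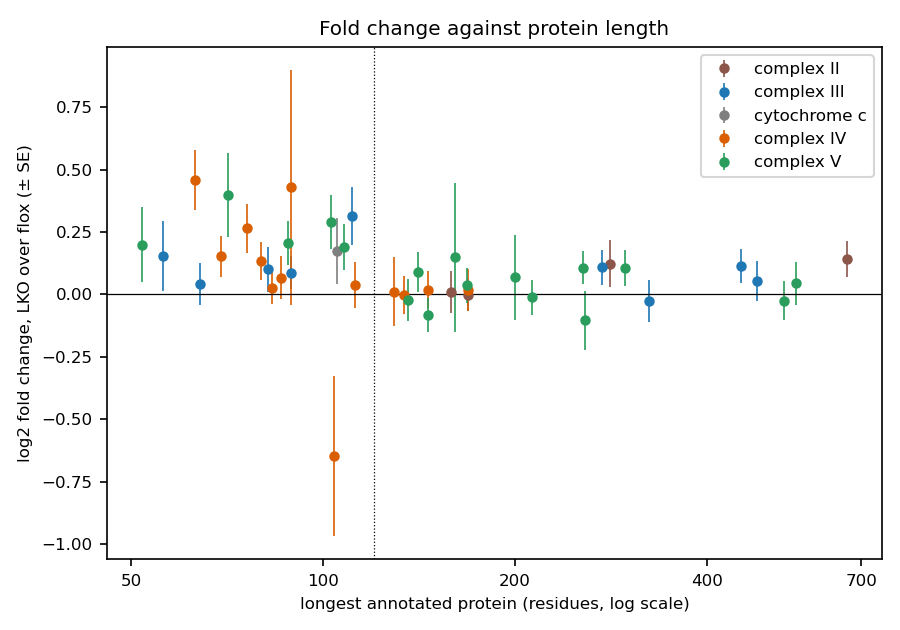
Log2 fold change (LKO over flox, ± SE) of each tested member against the length of the encoded protein in residues, coloured by complex, with a dotted line at 120 residues. The 6 genes with an unadjusted p under 0.05 lie left of the line, and the long subunits scatter about 0.

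The other genes of the pathway were read from lists, and no gene of any list passed the test, where 0.00793% of all genes did. Complex I, which feeds electrons from NADH, had 29 of 37 subunit genes above 0, a median log2 fold change of 0.080, and 6 higher at an unadjusted p under 0.05, of which 2 had groups that did not overlap. Over all genes these shares were 3.49% and 0.293%. In the fit without flox replicates 4 and 5, 26 lay above 0 with a median of 0.0585, and 4 were higher at an unadjusted p under 0.05. Of its genes, Ndufb3 had the smallest p, with a log2 fold change of 0.33 ± 0.079 (SE) and an adjusted p of 0.505 by edgeR, followed by Ndufa4, since reassigned to complex IV, at 0.27 ± 0.077 (SE) (edgeR, adjusted p = 0.510). The assembly factors of complex III, which build the enzyme in steps, were all above 0 (6 of 6, median 0.125; 4 of 6 and 0.0564 without flox replicates 4 and 5), among them Uqcc3 at 16.0 ± 1.48 CPM (flox) and 18.1 ± 2.52 CPM (LKO) and Uqcc2 at 8.77 ± 2.41 CPM (flox) and 10.8 ± 2.71 CPM (LKO). Those of complex IV had 17 of 21 above 0 and a median of 0.040, but 10 and -0.0115 without flox replicates 4 and 5 and 12 and 0.0094 without LKO replicate 4. Among them Cox16, which helps mature the copper-containing subunit, was at 4.82 ± 0.589 CPM (flox) and 6.57 ± 1.49 CPM (LKO) (log2 fold change 0.44 ± 0.17 (SE); edgeR, unadjusted p = 0.0203, adjusted p = 0.625), and Cmc1 at 13.5 ± 2.69 CPM (flox) and 16.2 ± 1.84 CPM (LKO). Assembly factors of complex V had 4 of 5 above 0 and a median of 0.068, which is the value of Atp5s, a member already counted above. Without flox replicate 5 the median was 0.00089, without replicates 4 and 5 it was 0.0395, and without LKO replicate 6 it was 0.0311. In this list, Atpaf2, which binds the alpha subunit, was at 20.7 ± 1.99 CPM (flox) and 22.2 ± 1.67 CPM (LKO) and Atpaf1, which binds the beta subunit, at 3.64 ± 1.5 CPM (flox) and 4.35 ± 0.859 CPM (LKO). Those of complex II were split 2 to 2, also without flox replicates 4 and 5 and without LKO replicate 4, with Sdhaf2, which helps attach the flavin, at 22.8 ± 2.54 CPM (flox) and 24.8 ± 2.76 CPM (LKO) and Sdhaf3 at 7.24 ± 1.62 CPM (flox) and 6.89 ± 0.740 CPM (LKO).

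Regulators of respiratory genes were evenly split. Of 14 tested, 7 lay above and 7 below 0, with a median of 0.0090 (-0.0304 without flox replicates 4 and 5, -0.0039 without LKO replicate 4). Slirp, which stabilises mitochondrial messenger RNAs, was at 10.6 ± 1.30 CPM (flox) and 12.9 ± 1.77 CPM (LKO), a log2 fold change of 0.28 ± 0.12 (SE) (edgeR, unadjusted p = 0.0326, adjusted p = 0.637). Polrmt, the mitochondrial RNA polymerase, was at 34.1 ± 2.46 CPM (flox) and 31.0 ± 2.64 CPM (LKO). Ppargc1a, the coactivator of mitochondrial genes that fasting induces in liver, was at 21.7 ± 6.73 CPM (flox) and 20.0 ± 8.65 CPM (LKO), a log2 fold change of -0.12 ± 0.30 (SE) (edgeR, adjusted p = 0.947). Of 8 reference genes for mitochondrial mass, 4 lay above and 4 below 0, with a median of 0.0068 (-0.0152 without LKO replicate 4). This median also moved with single flox livers. It was 0.0629 with 6 above 0 without flox replicate 2, and -0.0404 with 3 above 0 without flox replicate 1. Among these, Cs (citrate synthase) was at 91.3 ± 11.0 CPM (flox) and 99.9 ± 8.69 CPM (LKO) and Hspd1, the matrix chaperone, at 293 ± 33.6 CPM (flox) and 318 ± 29.8 CPM (LKO).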

How the data were processed

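Liver RNA of 5 flox and 7 LKO mice was extracted with TRIzol and sequenced from NEBNext Ultra libraries, per the labels' protocols. The authors deposited whole-number counts per gene and FPKM values. The submitters' processing notes name HISAT2 2.0.5 and featureCounts 1.5.0-p3, beside CASAVA 1.8, DESeq2 1.20.0 and fastp, and the build GRCm39, while the table's identifiers and coordinates are of the C57BL/6NJ annotation. The deposited FPKM equal the count divided by gene length and 1 factor per library, and served for levels between genes. The sources used here do not give the strand setting, or how reads matching several genes were counted.

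Counts were fitted over all genes with edgeR 4.0.16 (R 4.3.3; filterByExpr, TMM, robust quasi-likelihood F test), with Benjamini-Hochberg adjustment over 12615 genes and a threshold of 0.05; DESeq2 1.42.0 and limma 3.58.1 were alternatives. The filter left out Cox4i2, Cox6a2, Cox8b and Cox8c. The 612 rows without a symbol stayed in the fit as genes. Scripts were tested on simulated counts. Relative levels by liver are log2 CPM with a prior count of 2. Named genes are Ube4a; per complex the 2 smallest p-values and the highest mean FPKM; members with an unadjusted p under 0.05 or groups without overlap; the isoform families; and the 2 smallest p-values of each pathway list. Some further genes were described outside this rule, among them Sdhc, Uqcrfs1, Uqcr11, Uqcrh, Atp5h, Atp5b, Atp5j, Atp5e, Usmg5 and Ppargc1a. The members and lists were chosen with earlier results of these data known. Same-numbered replicates of the groups did not deviate together (correlations from -0.289 to 0.104), so numbers were not used as pairs. No 2 replicates agreed within counting noise.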

Additional observations from a re-analysis of the deposited data

Results flagged for a closer look

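In 7 of the 88 sets of livers examined (44 members, 2 genotypes; 7.95%), a single liver lay far from the rest of its group, where chance gives about 1 in 20 for a single set. The sets share the same 12 livers and are not independent. All 7 were flox livers. Flox replicate 2 was high in 3 genes: Uqcrc1, a core subunit of complex III, at 386 CPM against 290.11 to 310.42 CPM in the other 4 (gap 0.787 of the range), Cox5a at 122 against 97.1 to 102 CPM (0.818), and Cox8a at 118 against 101 to 105 CPM (0.719). Flox replicate 1 was high in Atp5h, at 101 against 35.4 to 44.6 CPM (0.86), and low in Atp5e, at 60.4 against 93.0 to 100.16 CPM (0.82). Flox replicate 3 was low in Atp5j2, at 117 against 127 to 129 CPM (0.8), and flox replicate 4 was low in Cox6c, at 110 against 141 to 151 CPM (0.77).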

How the results depend on the processing

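Over 24 other settings no member passed the test, and the median of the members stayed positive, from 0.0585 to 0.0966 with other processing, 0.0554 without flox replicates 4 and 5, and from 0.0432 to 0.108 with livers left out in turn. The number of genes called over the whole table was 26 with DESeq2 and 1 to 2 with livers left out. With livers left out in turn, 17 of the 44 log2 fold changes took either sign, among them those of Atp5a1 (-0.00669 to 0.0913), Atp5b (-0.0703 to 0.0126), Atp5g1 (-0.0581 to 0.0339), Atp5h (-0.0212 to 0.511), Cox4i1 (-0.0286 to 0.0429), Cox6a1 (-0.0193 to 0.0731), Cox7a2 (-0.0182 to 0.0376), Cox7a2l (-0.0446 to 0.0242), Cyc1 (-0.0619 to 0.0362) and Sdhd (-0.0388 to 0.0373). Sdhd turned to -0.00308 with upper-quartile factors, -0.0217 with total counts, -0.00392 on log2(FPKM + 1) and -0.00397 on log2(FPKM + 0.1). Total counts gave -0.010 for Cox4i1 and -0.0044 for Cox7a2, no filter gave 0.00135 for Cox7a2l, and voom gave 0.00234 for Atp5g1. Without flox replicates 4 and 5, an alternative for the doubted livers, Cox4i1 was -0.0355, Cox6a1 -0.0451, Atp5h -0.0356 and Cox7a2l 0.0564. The number of members over 120 residues above 0 moved from 16 to 10 without LKO replicate 4, which was chosen after seeing the data. The cause of these changes was not tested.

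The replicate block, fitted although the numbers do not pair the livers, called 2 genes and 0 members, with 7 members at an unadjusted p under 0.05 and a median of 0.0966. Sdhd was -0.0488 and Cox7a2l 0.0484 with the block. Of 5 pairs, 0 correlated best with their own number.

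Depth limited the forms with few counts (Cox7a1, Cox6b2). Counts of genes with similar pseudogenes depend on how shared reads were treated.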
